A study of Mus musculus with 18 samples.

Results

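Goblet cell mucus genes, 8 in number, were followed in the ileum of mice after an allogeneic bone marrow transplant, out of 22180 genes measured. They were Muc2, Fcgbp, Clca1, Zg16, Tff3, Agr2, Spdef and Retnlb, chosen by their symbols, and each was read on the probe set that carried its symbol alone. Only Muc2 had 2 such probe sets, and the one with the higher mean over all arrays was used. Recipients were B10.BR mice, 8 to 12 weeks old, given 11 Gy of total body irradiation on day -1, and the grafts came from C57Bl/6 donors. All mice received T cell-depleted marrow. In one arm this was the whole graft (marrow-only mice), and in the other purified donor T cells were added (T cell mice), so that graft-versus-host disease develops, according to the labels. Each arm was gavaged daily from day -1 with either 150 mg/kg ICA (indole-3-carboxaldehyde, which gut bacteria make from tryptophan) or vehicle, made of 20% DMSO, 40% PEG400 and 2% citric acid. The ileum was taken on day 21, 1 array per mouse, from 4 marrow-only vehicle, 5 marrow-only ICA, 4 T cell vehicle and 5 T cell ICA mice. Irradiation and the allogeneic marrow were thus common to all 4 groups, and no untreated mice were among them. Sample labels number the mice as separate biological replicates.

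Goblet cells are secretory cells of the intestinal epithelium that make the mucus gel separating bacteria from the tissue. The gel is a network of the mucin MUC2, which is folded in the endoplasmic reticulum, decorated with O-linked glycans in the Golgi, stored in granules and then released. It carries partner proteins from the same granules, and the transcription factor SPDEF drives the last steps of goblet cell maturation. In graft-versus-host disease, donor T cells attack the epithelium of the gut, where crypt base cells such as Paneth cells are known targets.

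The arrays had close distributions, with array medians of 6.47 to 6.51 on the log2 scale of the deposited signal and correlations between arrays of 0.978 to 0.993. The ileal markers Fabp6 (11.81 to 12.71) and Slc10a2 (10.27 to 11.08), the bile acid binding protein and bile acid transporter of the distal small intestine, were high on every array. An earlier look at these data had set 3 arrays apart, namely mouse 1 of the marrow-only ICA group, mouse 1 of the T cell ICA group and mouse 3 of the marrow-only vehicle group. Their mean correlations with their group mates were 0.984, 0.985 and 0.989, where those of the other 15 arrays ran from 0.987 to 0.991, so that by this measure the marrow-only vehicle mouse did not stand outside the rest. Marrow-only ICA mouse 1 had a mean of 11.15 over the enterocyte markers against 9.61 to 10.32 in the rest of its group, and its signal for lactase, Lct, was 10.06 against 5.93 to 6.56. Marrow-only ICA mouse 3 had a signal of 12.04 for Car1, an enzyme of colonocytes, against 4.92 to 6.45 in the rest of its group. Car1 was also high in T cell ICA mice 1 and 5 (10.31 and 9.29) and in T cell vehicle mouse 2 (8.94), and the other T cell mice had 5.17 to 6.03. Aqp8 and Slc37a2, also colon markers, followed Car1 in some of these mice but not in all. Aqp8 was 7.21 in marrow-only ICA mouse 3, but 5.63 and 5.17 in T cell ICA mice 1 and 5 and 5.59 in T cell vehicle mouse 2. The mice without high Car1 had 5.21 to 5.98. Slc37a2 was 7.12, 6.80, 7.15 and 6.74 in these mice in the same order. Some results are given again without single mice or without the 3 arrays.

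None of the 8 genes passed the test in any comparison, at an adjusted p under 0.05 over all 22180 genes (limma). Between T cell and marrow-only mice, 0 of 8 were called under vehicle, against 1.47% of all genes, and 0 of 8 under ICA, against 3.12%. Between ICA and vehicle, 0 of 8 were called in T cell mice (0.0135% of all genes) and 0 of 8 in marrow-only mice (0.00451%). For the interaction, the difference of the ICA effect between the graft arms, the numbers were 0 of 8 and 0% of all genes. At an unadjusted p under 0.05 the goblet genes counted 0, 2, 1, 1 and 1 in these 5 comparisons, where the shares of all genes were 13%, 16.6%, 6.89%, 7.52% and 6.68%. The shares of all genes called depended on single mice. With 1 mouse left out they ran from 0.424% (without marrow-only vehicle mouse 4) to 2.32% (without T cell ICA mouse 1) between the graft arms under vehicle. Under ICA they ran from 1.7% (without marrow-only ICA mouse 5) to 6.19% (without marrow-only ICA mouse 1). Between ICA and vehicle in marrow-only mice the highest was 0.537%, also without marrow-only ICA mouse 1. The comparisons reuse the same 4 groups of mice and are not independent of each other.

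The intervals were narrow for all but Retnlb. For the other 7 genes, all 28 of the 95% intervals in the 4 comparisons between groups left out a 2-fold difference in either direction. The lowest bound was -0.79 on the log2 scale and the highest 0.66, both for Clca1. The spread between mice within groups differed much among the genes: the residual SD was 0.04 for Muc2, 0.06 for Agr2, 0.11 for Spdef, 0.13 for Zg16, 0.15 for Fcgbp, 0.16 for Tff3, 0.25 for Clca1 and 1.57 for Retnlb, where the median over all genes was 0.16. Muc2 had the 6th lowest residual SD of all 22180 genes and Retnlb the 8th highest. The Muc2 signal lay only 0.38 to 0.56 below the highest signal on its array, and whether its probes still respond in full at this level was not tested, so its small spread and narrow intervals describe the signal and need not hold for the transcript.

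**Figure D1:**
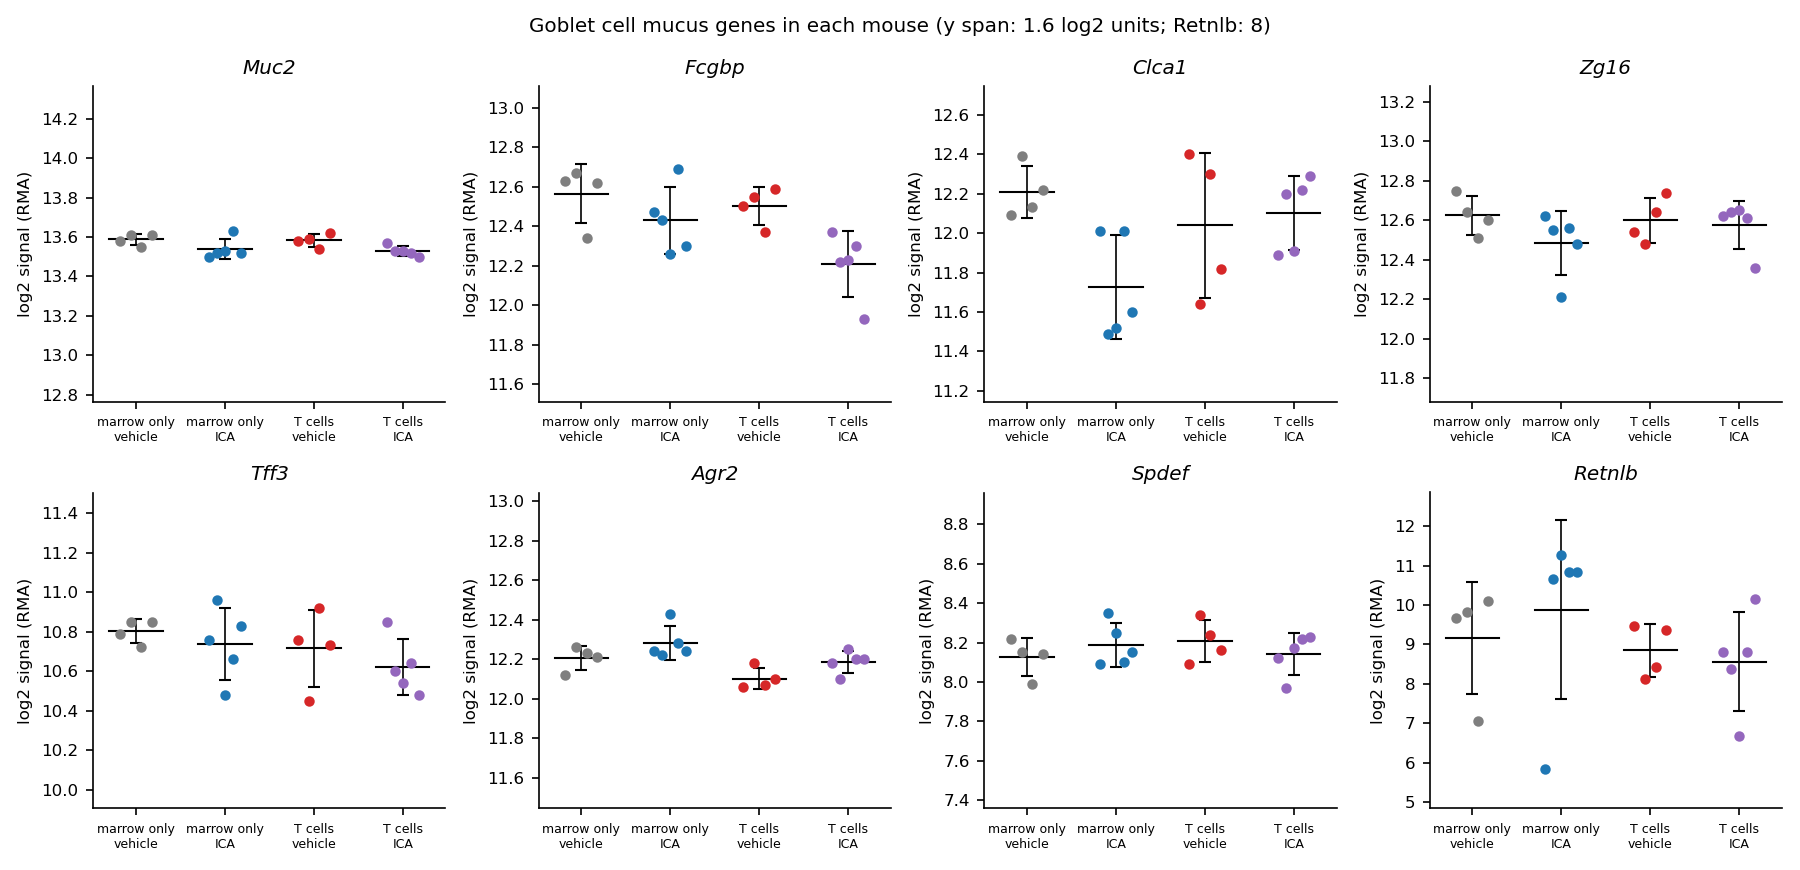
Log2 signal of the 8 goblet cell mucus genes in each of 18 mice (points) by group, with the group mean (wide bar) and SD (error bar). The y axes span 1.6 log2 units, except 8 for Retnlb. Clca1 shows 2 marrow-only groups that do not overlap, and Retnlb shows single mice far below their group, at 7.05 and 5.84.

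**Figure D2:**
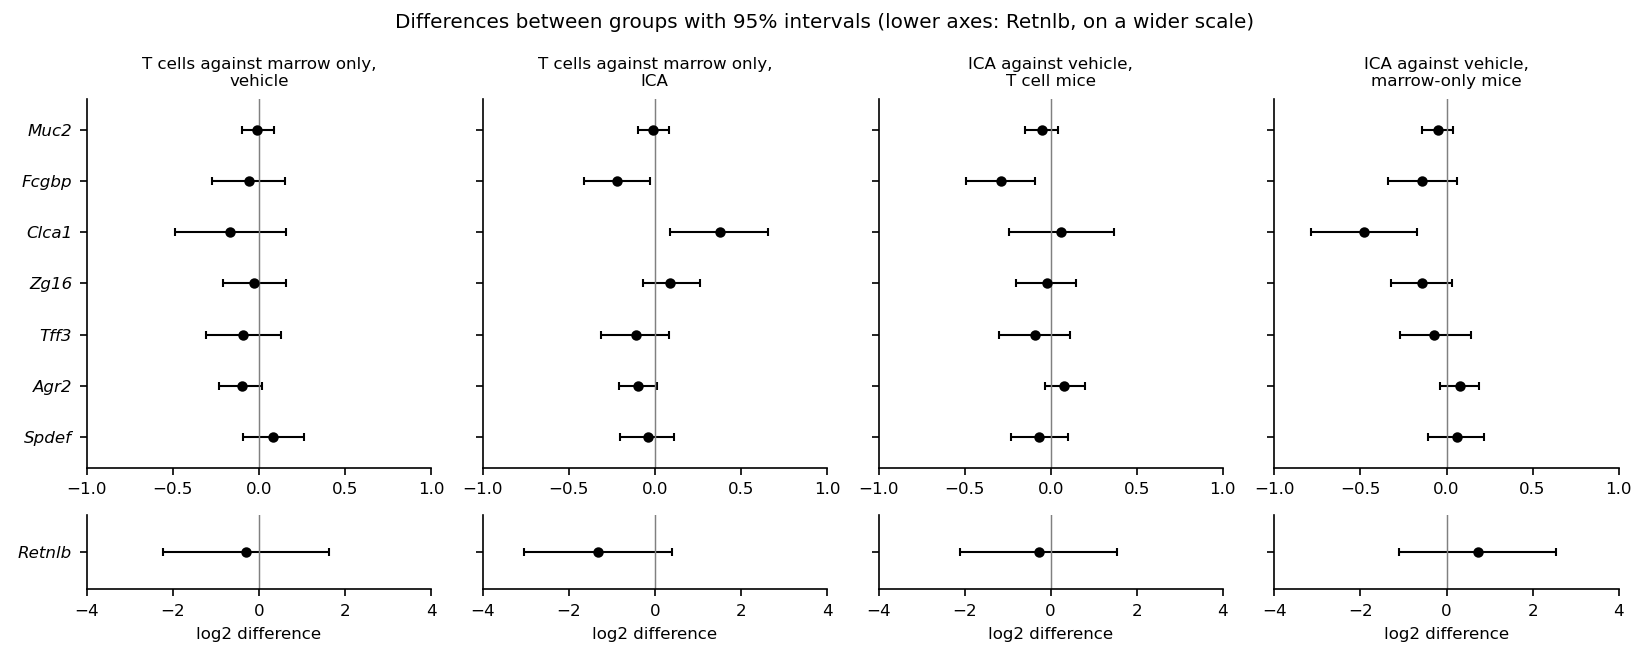
Log2 differences (x axes) of the 8 genes with 95% intervals from the limma fit, in the 4 comparisons between groups. Axes run from -1 to 1 for 7 genes and from -4 to 4 for Retnlb in the lower row, and all intervals in the upper row lie inside the 2-fold limits.

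Muc2, the mucin that forms the gel, had log2 signals of 13.58, 13.61, 13.55 and 13.61 in the marrow-only vehicle mice and 13.50, 13.52, 13.53, 13.63 and 13.52 in the marrow-only ICA mice. Its signals were 13.58, 13.59, 13.54 and 13.62 in the T cell vehicle mice and 13.57, 13.53, 13.53, 13.52 and 13.50 in the T cell ICA mice. The 4 groups overlapped, and the lowest and the highest mouse differed 1.09-fold. T cell mice differed from marrow-only mice by -0.01 ± 0.05 (SE; 95% interval -0.10 to 0.09) under vehicle and by -0.01 ± 0.04 (-0.10 to 0.08) under ICA. The difference between ICA and vehicle was -0.05 ± 0.05 in both arms (-0.15 to 0.04 in T cell mice, -0.14 to 0.04 in marrow-only mice). The other Muc2 probe set, with group means of 13.02 to 13.10, gave differences of -0.05 ± 0.06, -0.00 ± 0.05, -0.03 ± 0.06 and -0.08 ± 0.06 in the same 4 comparisons.

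Fcgbp encodes the Fc gamma binding protein, a large protein of the mucus gel. Its signals were 12.63, 12.67, 12.34 and 12.62 in marrow-only vehicle mice, 12.47, 12.43, 12.26, 12.69 and 12.30 in marrow-only ICA mice and 12.50, 12.55, 12.37 and 12.59 in T cell vehicle mice. In T cell ICA mice they were 12.37, 12.22, 12.23, 12.30 and 11.93. The lowest mouse of each ICA group (12.26 and 11.93) had high Car1, and so had the highest T cell ICA mouse (12.37). Under vehicle, the T cell mouse with high Car1 had 12.55. Whether tissue sampling played a part in the Fcgbp values was not tested. T cell ICA mice were the lowest group, and they met the T cell vehicle mice at 12.37. The difference between these 2 groups was -0.29 ± 0.10 (-0.49 to -0.09), with an unadjusted p of 0.00632 and an adjusted p of 0.517 (limma). Between T cell and marrow-only mice under ICA it was -0.22 ± 0.09 (-0.41 to -0.03; adjusted p = 0.213), and under vehicle it was -0.06 ± 0.10 (-0.27 to 0.15).

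Muc2 and Fcgbp varied together between mice of the same group. Pearson's r of their deviations from the group means was 0.78 over 18 mice (permutation p = 0.00048 with 100000 resamples within groups, two-sided; adjusted p = 0.0134 over the 28 pairs of the 8 genes), and Spearman's rho was 0.75 (permutation p = 0.00168; adjusted p = 0.047). Without the 2 mice farthest from the median of Muc2, r was 0.66. Of the 28 pairs this was the only one that passed the adjustment, and 14 pairs had a positive r, with a median r of 0.01 and a range of -0.63 to 0.78. Fcgbp and Zg16 had r = 0.65 (permutation p = 0.0121, adjusted p = 0.143), and Agr2 had a negative r with Tff3 (r = -0.63, permutation p = 0.0154, adjusted p = 0.143) and with Zg16 (r = -0.62, permutation p = 0.0286, adjusted p = 0.186). These r values were nearer 0 without the 2 mice farthest from the median of 1 gene of the pair. Fcgbp with Zg16 then had 0.47 (by the median of Fcgbp). Agr2 then had -0.33 with Tff3 (by that of Tff3) and -0.43 with Zg16 (by that of Zg16). Each mouse gave both values of a pair from 1 array, so that the pairs also share whatever differed between arrays. Genes outside the 8 had a higher r with Muc2 than Fcgbp did, among them Nr1h4 (0.902) and the olfactory receptor gene Olfr926 (0.887). Muc2 itself varied little between mice (residual SD 0.04).

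**Figure D3:**
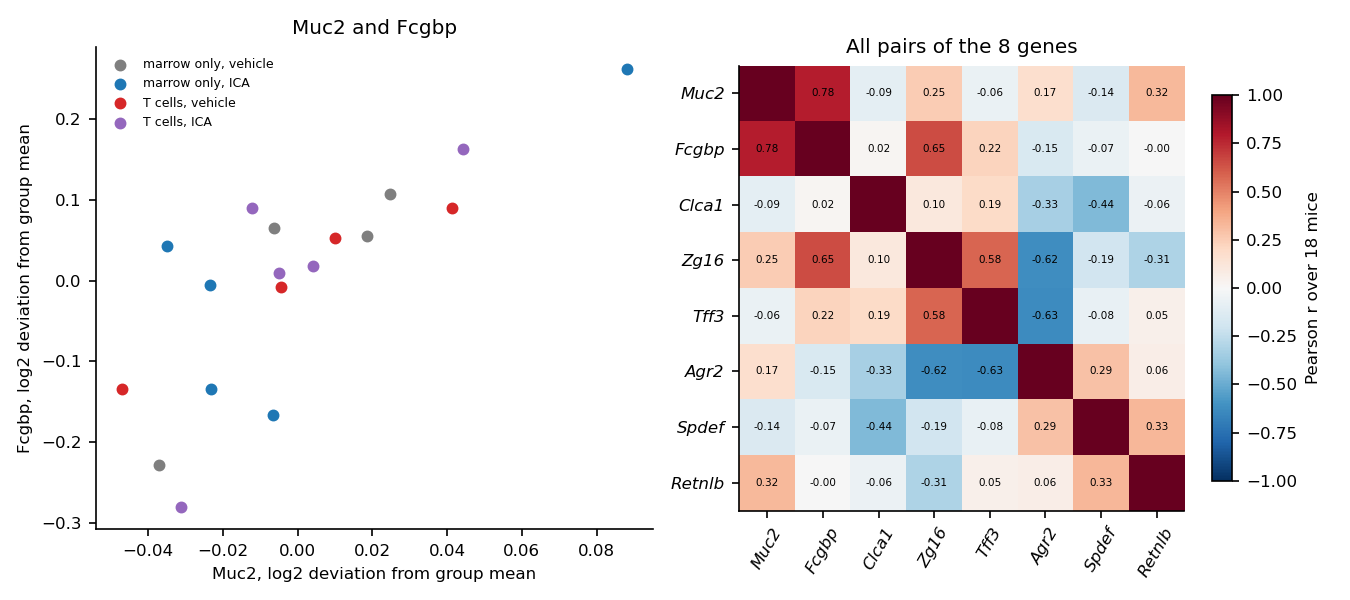
Left, log2 deviations from the group mean of Fcgbp (y axis) against Muc2 (x axis) in 18 mice, coloured by group. Right, Pearson's r of such deviations for all 28 pairs of the 8 genes, on a colour scale from -1 to 1; Muc2 with Fcgbp has the highest r, 0.78.

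The 250 bases before the annotated starts of Muc2 and Fcgbp are shown, from RefSeq on GRCm38.p6. They lie on the plus strand of mouse chromosome 7, at chr7:141690090-141690339 for Muc2 and chr7:28070986-28071235 for Fcgbp. Capitals mark matches to TATAAA, the letters of a TATA box, and to CAGCTG, an E-box of the kind bound by ATOH1, the factor that commits cells to the secretory lineage.
Muc2: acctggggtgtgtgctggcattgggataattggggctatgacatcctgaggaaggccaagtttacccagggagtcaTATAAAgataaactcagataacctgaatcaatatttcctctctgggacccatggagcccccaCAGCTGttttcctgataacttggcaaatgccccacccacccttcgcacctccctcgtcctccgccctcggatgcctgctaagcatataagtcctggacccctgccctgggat
Fcgbp: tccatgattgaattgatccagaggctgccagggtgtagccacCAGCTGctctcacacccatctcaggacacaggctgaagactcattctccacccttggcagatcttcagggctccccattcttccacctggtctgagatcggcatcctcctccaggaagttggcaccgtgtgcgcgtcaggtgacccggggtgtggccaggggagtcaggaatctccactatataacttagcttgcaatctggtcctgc
CAGCTG lay 112 bases before the start of Muc2 and 208 bases before that of Fcgbp, and 13% of 32851 promoters of this length held it on either strand. The exact letters TATAAA were found in Muc2 alone, 174 bases before its start, and in 12.4% of all promoters. Near matches were not searched for or marked, such as tataag close to the start of Muc2 and tataac close to that of Fcgbp. The marked match is thus not placed as the TATA box in use. Promoters were at hand for 4 of the 8 genes (Muc2, Fcgbp, Agr2 and Spdef). GCGTG, the core of the element of the aryl hydrocarbon receptor, was in the Spdef window only, 177 bases before the start used there, against 28.2% of all promoters. That Spdef window lies inside the annotated span of the gene, before the start of an inner transcript, and not before its outermost start. TTCNNNGAA, of the STAT type (7.02% of all promoters), and TGTTTAC, of the forkhead type (3.17%), were in none of these 4 windows. The matches did not overlap each other, and they describe letters, not binding.

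Clca1 encodes a secreted protease of the mucus, also known as gob-5, that trims the MUC2 network. Its signals were 12.09, 12.39, 12.13 and 12.22 in marrow-only vehicle mice and 12.01, 11.49, 11.52, 12.01 and 11.60 in marrow-only ICA mice. In T cell vehicle mice they were 12.40, 11.64, 12.30 and 11.82, and in T cell ICA mice 11.89, 12.20, 11.91, 12.22 and 12.29. Every marrow-only ICA mouse was below every marrow-only vehicle mouse, while the T cell groups overlapped, with 2 high and 2 low mice under vehicle. Among T cell mice, high Car1 was found in the lowest of each treatment (11.64 and 11.89) and in the highest under ICA (12.29). The marrow-only mouse with high Car1 had 11.52, above the lowest of its group (11.49). Whether tissue sampling played a part in the Clca1 values was not tested. Clca1 was the only one of the 8 genes whose marrow-only groups did not overlap, which 2.18% of all genes did in this comparison. The difference was -0.48 ± 0.15 (-0.79 to -0.17), 1.4-fold, with an unadjusted p of 0.00379 and an adjusted p of 0.598 (limma). In T cell mice the difference between ICA and vehicle was 0.06 ± 0.15 (-0.24 to 0.37). The interaction was 0.54 ± 0.21 (0.11 to 0.98; unadjusted p = 0.0167, adjusted p = 0.71). Between T cell and marrow-only mice under ICA, Clca1 differed by 0.38 ± 0.14 (0.09 to 0.66; adjusted p = 0.16), and under vehicle by -0.17 ± 0.16 (-0.49 to 0.16). Without the 3 arrays that stood apart, the marrow-only difference was -0.58 ± 0.16 (adjusted p = 0.179) and that between T cell and marrow-only mice under ICA 0.50 ± 0.15 (adjusted p = 0.0505).

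No groups of the 8 genes failed to overlap in the other comparisons: 0 of 8 between T cell and marrow-only mice under vehicle (10.5% of all genes), 0 of 8 under ICA (3.33%) and 0 of 8 between ICA and vehicle in T cell mice (2.89%).

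Zg16, a small lectin of the mucus that binds Gram-positive bacteria, had signals of 12.75, 12.64, 12.51 and 12.60 in marrow-only vehicle mice and 12.62, 12.55, 12.21, 12.56 and 12.48 in marrow-only ICA mice. The T cell vehicle mice had 12.54, 12.48, 12.64 and 12.74 and the T cell ICA mice 12.62, 12.64, 12.65, 12.61 and 12.36. The groups overlapped throughout, and 1 mouse in each ICA group was low, at 12.21 (marrow-only, mouse 3) and 12.36 (T cells, mouse 5). Both had high Car1. T cell vehicle mouse 2, also high in Car1, was the lowest of its group (12.48). T cell ICA mouse 1, with high Car1 too, was not low in Zg16 (12.62). The part of tissue sampling in these low values was not tested. The 4 differences ran from -0.14 ± 0.08 (-0.32 to 0.03), between ICA and vehicle in marrow-only mice, to 0.09 ± 0.08 (-0.07 to 0.26), between T cell and marrow-only mice under ICA. Tff3, the trefoil peptide that is released with the mucus and aids repair of the surface, ranged from 10.45 to 10.96 over all mice. Its group means were 10.80 ± 0.06 (SD, n = 4) in marrow-only vehicle, 10.74 ± 0.18 (n = 5) in marrow-only ICA, 10.71 ± 0.20 (n = 4) in T cell vehicle and 10.62 ± 0.14 (n = 5) in T cell ICA mice. The mice low in Zg16 and high in Car1 were also the lowest of their groups in Tff3 (10.48, 10.48 and 10.45). T cell ICA mouse 1 was instead the highest of its group (10.85). All 4 groups overlapped, and the largest of the 4 differences, between T cell and marrow-only mice under ICA, was -0.11 ± 0.09 (-0.31 to 0.08).

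Agr2 encodes a protein disulfide isomerase of the endoplasmic reticulum that MUC2 needs for its folding. Its signals were 12.12, 12.26, 12.23 and 12.21 in marrow-only vehicle mice, 12.24, 12.22, 12.43, 12.28 and 12.24 in marrow-only ICA mice, 12.06, 12.18, 12.07 and 12.10 in T cell vehicle mice and 12.18, 12.10, 12.25, 12.20 and 12.20 in T cell ICA mice. In order of their means, T cell vehicle (12.10 ± 0.06), T cell ICA (12.18 ± 0.05), marrow-only vehicle (12.21 ± 0.06) and marrow-only ICA mice (12.28 ± 0.08) each overlapped the next. T cell mice differed from marrow-only mice by -0.10 ± 0.06 (-0.23 to 0.02; adjusted p = 0.495) under vehicle and by -0.10 ± 0.05 (-0.21 to 0.01; adjusted p = 0.376) under ICA. Marrow-only ICA mouse 3, which had the highest Car1, had the highest Agr2 signal, while the other 3 mice with high Car1 had Agr2 signals of 12.18 to 12.20. Without marrow-only ICA mouse 3, the second of these differences was -0.06. Whether tissue sampling played a part in the Agr2 values was not tested. Spdef, the maturation factor itself, ranged from 7.97 to 8.35, and its group means of 8.13 to 8.21 lay within 1 SD of each other. Its differences were 0.08 ± 0.08 (-0.09 to 0.26) and -0.04 ± 0.07 (-0.20 to 0.11) between T cell and marrow-only mice under vehicle and ICA. Between ICA and vehicle they were -0.07 ± 0.08 (-0.23 to 0.10) in T cell mice and 0.06 ± 0.08 (-0.11 to 0.22) in marrow-only mice.

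Retnlb encodes RELM beta, a goblet cell peptide that acts on bacteria and is known to be induced by bacterial colonisation and by type 2 cytokines. Its signals were 9.67, 9.82, 7.05 and 10.11 in marrow-only vehicle mice and 5.84, 10.66, 11.26, 10.83 and 10.84 in marrow-only ICA mice. In T cell vehicle mice they were 9.48, 8.12, 8.44 and 9.36, and in T cell ICA mice 8.81, 8.38, 6.69, 8.81 and 10.15. The highest and the lowest mouse were both marrow-only ICA mice. The lowest, at 5.84, was below the array medians and at the level of stomach and pancreas markers on these arrays (Gkn1 5.60 to 6.28, Prss2 4.96 to 5.74), and no fold is given against it. The group means were 9.16 ± 1.42 (SD, n = 4), 9.89 ± 2.27 (n = 5), 8.85 ± 0.67 (n = 4) and 8.57 ± 1.24 (n = 5) in the same order, and all groups overlapped.

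T cell mice differed from marrow-only mice in Retnlb by -1.32 ± 0.83 (-3.05 to 0.41; adjusted p = 0.46) under ICA and by -0.31 ± 0.93 (-2.24 to 1.62; adjusted p = 0.934) under vehicle. The difference between ICA and vehicle was 0.72 ± 0.88 (-1.11 to 2.55) in marrow-only mice and -0.28 ± 0.88 (-2.11 to 1.55) in T cell mice. The first of these results turned on 1 mouse. That mouse, marrow-only ICA mouse 1, had the highest Lct (10.06) and enterocyte marker mean (11.15) of its group. Without this mouse the first difference was -2.33 ± 0.56, with an adjusted p of 0.0151 (limma), in a fit that called 6.19% of all genes. Without all 3 arrays that stood apart it was -2.39 ± 0.47 (-3.38 to -1.41), 5.25-fold, with an adjusted p of 0.00378, and 6.83% of all genes were called. The marrow-only ICA mice then had a mean of 10.90 ± 0.26 (n = 4, 10.66 to 11.26), above all 4 remaining T cell ICA mice (8.51 ± 1.43). The marrow-only vehicle mice then had 9.87 ± 0.23 (n = 3). The corresponding differences that missed the threshold were -1.02 ± 0.51 between T cell and marrow-only mice under vehicle (adjusted p = 0.37) and 1.03 ± 0.51 between ICA and vehicle in marrow-only mice (adjusted p = 0.476). The 3 arrays came from an earlier look at the same data. They included the marrow-only mice lowest in Retnlb in each treatment, and its residual SD was 0.84 without them against 1.57 with all mice. The fits without these mice are thus no independent support for a difference in Retnlb. Marrow-only ICA mouse 3, with the highest Car1, had the highest Retnlb of all mice. Of the other 3 mice with high Car1, T cell ICA mouse 5 had the highest Retnlb of its group (10.15), T cell ICA mouse 1 had 8.81 and T cell vehicle mouse 2 the lowest of its group (8.12). Without marrow-only ICA mouse 3 the difference between T cell and marrow-only mice under ICA was -0.98 ± 0.86. The part that tissue sampling played in these values was not tested.

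The genes most like Retnlb in their deviations over the 18 mice, looked up after its values were seen, were Fut2 (r = 0.919), Mal (0.907), B3gnt7 (0.906), Sfmbt2 (0.895) and Tat (0.875). Fut2 adds fucose to surface and mucin glycans, and B3gnt7 extends their chains. Fut2 had signals of 9.33, 9.89, 7.74 and 10.08 in marrow-only vehicle mice and 7.62, 11.06, 10.96, 10.53 and 11.38 in marrow-only ICA mice. The mice low in Retnlb, marrow-only vehicle mouse 3 and marrow-only ICA mouse 1, were thus also the lowest of their groups in Fut2, and the same 2 mice were lowest in B3gnt7 (8.22 and 8.30, with their group mates at 9.01 to 10.16). Without the 3 arrays that stood apart, r with Retnlb was 0.582 for Fut2 and 0.659 for B3gnt7 over 15 mice. It was 0.471 to 0.577 for Mal, Sfmbt2 and Tat. Gprin1, the 8th most like Retnlb over all mice (r = 0.846), then had the highest r of the 8 (0.879). The genes most like Muc2 were Nr1h4 (r = 0.902), which encodes the bile acid receptor FXR, Olfr926 (0.887), Pate10 (0.848), Olfr1337 (0.837) and Olfr1463 (0.824). Those most like the mean of the 8 standardised genes were Egfl6 (0.842), Exoc3l2 (0.836), Gdpd4 (0.825), Cntn6 (0.824) and Pik3ap1 (0.823). These correlations share the arrays and are the highest of all genes searched.

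**Figure D4:**
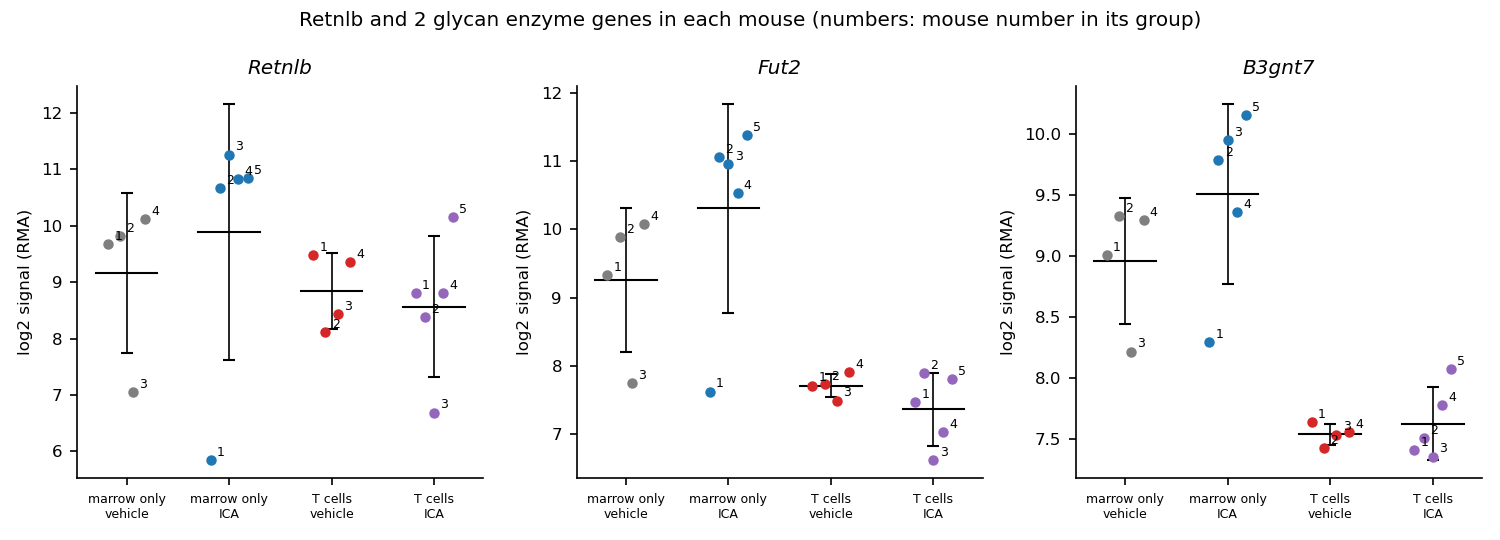
Log2 signal of Retnlb, Fut2 and B3gnt7 in each mouse (points numbered by mouse) by group, with means (wide bars) and SD (error bars). Marrow-only vehicle mouse 3 and marrow-only ICA mouse 1 are the lowest of their groups in all 3 genes, and in Fut2 they lie at 7.74 and 7.62, among the T cell mice.

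Around the 8 genes, lists of other mucus genes were read from the same fit, 131 genes in all. Between T cell and marrow-only mice, 9 of the 131 (6.87%) were called under vehicle, against 1.47% of all genes, and 20 (15.3%) under ICA, against 3.12%. The lists were drawn up with earlier results known, so these shares are a description. With 1 mouse left out, a setting added for these lists after their values were seen, the numbers ran from 1 to 12 under vehicle and from 13 to 32 under ICA. The highest, 12 and 32, came without marrow-only ICA mouse 1. The lowest came without marrow-only vehicle mouse 4 (1) and without either marrow-only ICA mouse 5 or T cell ICA mouse 3 (13 each). Of the 9 calls under vehicle, 1 (Clca3a2) held in all 18 such omissions, and of the 20 under ICA, 12 did: Muc13, Scin, Dmbt1, Bhlha15, Xbp1, Elf3, B3gnt7, St3gal6, Chst4, Fut2, Slc9a3 and Il18. Chst4 under vehicle held in 4 of the 18, and Hspa5 under ICA in 4. Without the 3 arrays that stood apart, 16 of the 131 were called under vehicle and 29 under ICA. In that fit 2.99% and 6.83% of all genes were called. With all mice, 1 of 10 other mucins fell with T cells under vehicle and 2 fell under ICA, with medians of -0.00 and -0.08 (all genes: 0.01 and -0.01). Here and below, a gene that rose or fell under vehicle or ICA did so in T cell against marrow-only mice, not in response to ICA. Muc13, a mucin anchored in the cell membrane, fell by 0.42 ± 0.09 under vehicle (adjusted p = 0.0275) and by 0.51 ± 0.08 under ICA (adjusted p = 0.00161). Muc4, also a membrane mucin, fell by 0.75 ± 0.18 under ICA (adjusted p = 0.0287) and had a difference of -0.61 ± 0.21 under vehicle. The other secreted gel-forming mucins had group means of 5.50 to 5.60 (Muc5ac), 5.97 to 6.12 (Muc5b) and 5.95 to 6.11 (Muc6), below the array medians of 6.47 to 6.51, and their differences are not given.

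Of 24 genes listed as mucin glycan enzymes, 0 rose and 2 fell under vehicle, and 1 rose and 6 fell under ICA, with medians of -0.11 and -0.15. B3gnt7 fell by 1.42 ± 0.29 under vehicle (adjusted p = 0.0172) and by 1.89 ± 0.26 under ICA (adjusted p = 0.000478). Its signals were 7.36 to 8.08 in the T cell mice and 8.22 to 10.16 in the marrow-only mice, without overlap. Chst4, which adds sulfate to such glycans, fell by 1.28 ± 0.32 under vehicle (adjusted p = 0.0497) and fell by 1.99 ± 0.29 under ICA (adjusted p = 0.00058). Fut2 fell by 2.95 ± 0.53 under ICA (adjusted p = 0.00316), while its difference under vehicle was -1.55 ± 0.59 (adjusted p = 0.232). Galnt3, which places the first sugar, fell by 0.36 ± 0.09 under ICA, and St3gal6, a sialic acid transferase, rose by 0.83 ± 0.17. Fut8, which acts on N-linked and not on O-linked glycans, fell by 0.31 ± 0.07 under ICA.

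Of 23 differentiation factors, 3 fell under vehicle and 4 under ICA, with medians of -0.01 and -0.06. Xbp1, a factor of the unfolded protein response, fell by 0.30 ± 0.07 (adjusted p = 0.0333) and 0.35 ± 0.06 (adjusted p = 0.00294). Bhlha15, or Mist1, a factor of secretory cell architecture, fell by 0.61 ± 0.13 (adjusted p = 0.0209) and 0.57 ± 0.12 (adjusted p = 0.00782), and Elf3, an epithelial ETS factor, by 0.39 ± 0.09 (adjusted p = 0.0294) and 0.65 ± 0.08 (adjusted p = 0.000173). The Notch ligand gene Dll4 fell by 0.37 ± 0.09 under ICA. Atoh1 had differences of -0.00 ± 0.10 and 0.14 ± 0.09, with group means of 10.23, 10.06, 10.22 and 10.20 in marrow-only vehicle, marrow-only ICA, T cell vehicle and T cell ICA mice. Xbp1 and Bhlha15 are also expressed by Paneth and plasma cells. Of 5 B and plasma cell markers, all were lower in T cell mice, 2 fell under vehicle and 3 under ICA (medians -0.71 and -0.87). Their mean ran from 6.69 to 7.87 in marrow-only and from 5.55 to 7.15 in T cell mice, and their part in these falls was not tested.

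Of 31 granule and surface genes, 2 fell under vehicle, and 2 rose and 2 fell under ICA, with medians of -0.05 and -0.02. Clca3a2, a relative of Clca1, fell by 0.82 ± 0.12 (adjusted p = 0.00179) and 0.48 ± 0.11 (adjusted p = 0.0183). Clca3b fell by 0.48 ± 0.11 under vehicle (adjusted p = 0.0294). Dmbt1, a scavenger receptor protein of the mucosal surface, fell under ICA, from 12.86 ± 0.45 in marrow-only to 11.87 ± 0.28 in T cell mice (SD; adjusted p = 0.00494), with a difference of -0.81 ± 0.21 under vehicle (adjusted p = 0.0599). Scin, an actin-severing protein, was higher in T cell than in marrow-only mice under ICA, by 1.15 ± 0.19 (adjusted p = 0.00123). So was Retnla, a relative of Retnlb that macrophages also make, by 2.76 ± 0.69 (adjusted p = 0.0313). Of 7 macrophage markers, 4 rose under vehicle and 2 under ICA (medians 0.69 and 0.42), with means over the list of 8.22 to 9.03 in marrow-only and 8.76 to 9.42 in T cell mice, and their part in the Retnla values was not tested. Scin had a difference of -0.90 ± 0.20 between ICA and vehicle in marrow-only mice (adjusted p = 0.561). This pair of groups overlapped in Scin, while it did not overlap in Clca1.

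Of 24 genes of secretion and protein folding, 0 were called under vehicle (3 at an unadjusted p under 0.05) and 2 fell under ICA, with medians of -0.09 and -0.14. These were Slc9a3, the sodium-proton exchanger of the brush border, by 1.25 ± 0.22 (adjusted p = 0.0021) and the chaperone Hspa5 by 0.44 ± 0.12 (adjusted p = 0.0479). Of 19 genes of type 2 and other inducing signals, 1 fell in each: Il18, a cytokine of epithelial cells and macrophages, by 1.25 ± 0.25 (adjusted p = 0.0129) and 1.65 ± 0.22 (adjusted p = 0.000342), with list medians of 0.01 and 0.02. The type 2 cytokine gene Il13 had differences of 0.06 ± 0.12 and 0.26 ± 0.11 (adjusted p = 0.896 and 0.214). Between ICA and vehicle, and for the interaction, 0 of the 131 genes were called (limma; 8 in T cell mice, 17 in marrow-only mice and 8 for the interaction at an unadjusted p under 0.05). These were 6.11%, 13% and 6.11% of the list genes, where 6.89%, 7.52% and 6.68% of all genes lay under that p. Without marrow-only ICA mouse 1, 2 of the 131 were called between ICA and vehicle in marrow-only mice. In that fit 0.537% of all genes were called in this comparison, against 0.00451% with all mice. With all mice, the list medians between ICA and vehicle lay between -0.10 and 0.04. The smallest p values in these lists included Gcnt1 (-0.36 ± 0.11) and B3gnt6 (-0.46 ± 0.15) in T cell mice and Elf3 (0.22 ± 0.08) in marrow-only mice, none of which passed.

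**Figure D5:**
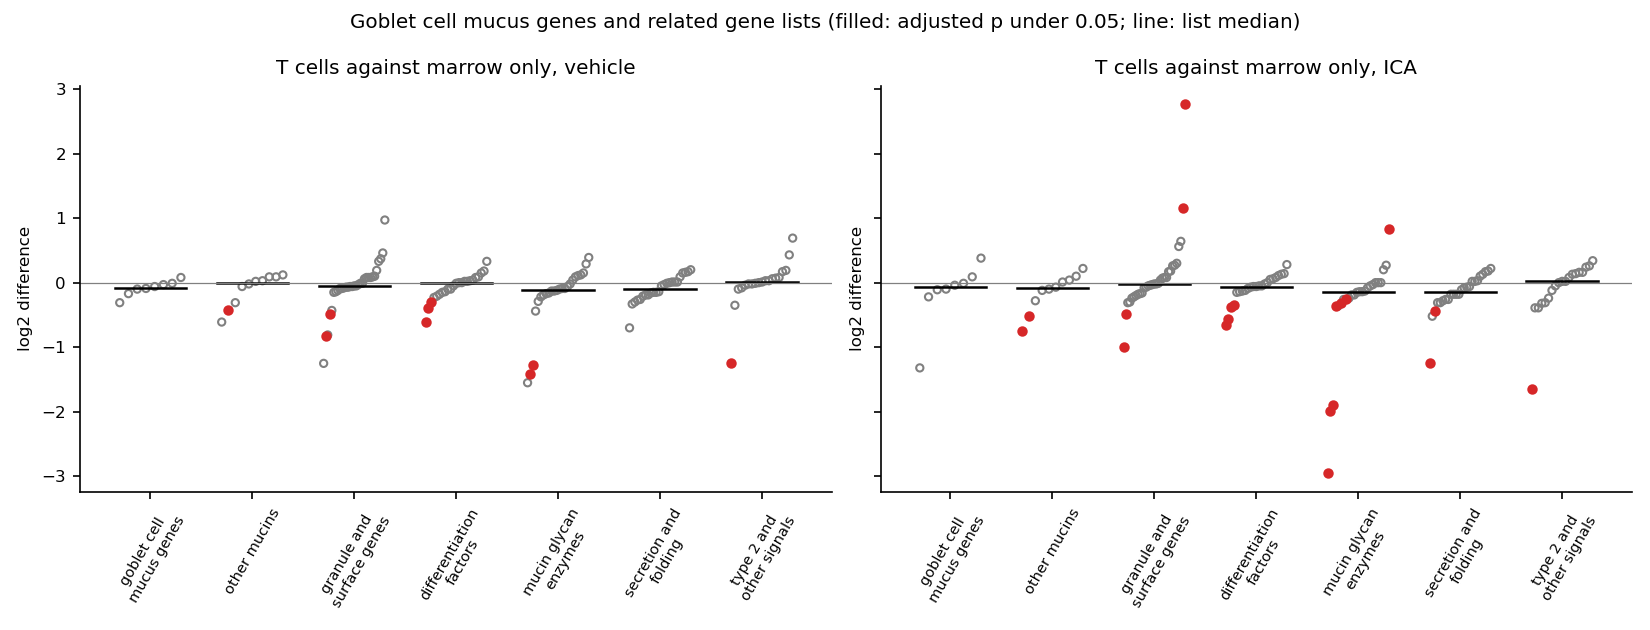
Log2 differences (y axis) between T cell and marrow-only mice of the 8 goblet cell mucus genes and of 6 related lists, under vehicle (left) and ICA (right). Each point is a gene, filled where its adjusted p was under 0.05, and the line is the list median; none of the 8 genes is filled, and the lowest filled point, at -2.95, is Fut2.

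Markers of some other cells moved with the graft arms, where 1.47% of all genes were called under vehicle and 3.12% under ICA. Of enteroendocrine, tuft, stem and cycling, ileal enterocyte, pancreas, stomach and colon markers, 0 were called in either. Of 7 neutrophil markers 1 rose under vehicle, and of 10 enterocyte markers 1 rose under ICA. The 9 general epithelial markers had group means of 11.66, 11.66, 11.66 and 11.67, with 0 called and 0 at an unadjusted p under 0.05 in each comparison. Of 6 Paneth markers, 3 fell under vehicle and 2 under ICA (medians -1.05 and -0.93; group means 11.85 ± 0.10 and 11.73 ± 0.15 in marrow-only mice, 10.70 ± 0.84 and 10.98 ± 0.48 in T cell mice). Of 7 T cell markers, 4 rose under vehicle, and 2 rose and 1 fell under ICA. All 6 smooth muscle markers rose under ICA and 0 were called under vehicle (6 at an unadjusted p under 0.05), and their mean ran from 10.70 to 10.99 in marrow-only and from 11.04 to 11.54 in T cell mice. In whole ileum, fewer cells of a type and less RNA per cell cannot be told apart, and the part of these shifts in the goblet gene values was not tested. With every array centred on the mean of the general epithelial markers, 0 of the 8 goblet genes were called in each comparison. As the group means of these markers were nearly equal, this centring could move the differences little. It cannot tell what part the other cell types played.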

How the data were processed

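RNA of the ileum of 18 mice was amplified with a whole-transcript kit and hybridised to Affymetrix arrays, per the labels' protocols. RMA, Partek and GenomeStudio are listed in the submitters' processing notes, without versions. The deposited values, taken as log2 from their range, were used as given, without a filter on low values. The table held 41345 probe sets, 23521 with 1 gene symbol and 1814 with several, and each of 22180 genes was read on its probe set with 1 symbol and the highest mean. In R 4.3.3, limma 3.58.1 fitted a mean per group to all 18 arrays (14 residual degrees of freedom, variance trend), and p-values were Benjamini-Hochberg adjusted over all genes. The script was tested on simulated data. The 8 genes, the gene lists and the tests were chosen with earlier results of these data known. Named were the 8 genes, up to 6 called genes of each list and comparison (otherwise those of smallest p), and the 5 genes most like Muc2 and the 8-gene mean. The number of arrays limits the precision. Same-numbered mice did not vary together (median correlation 0.00, -0.14 to 0.20 over 25 pairs), so numbers were not used for pairing. Alternatives varied normalization, filter, probe sets, prior, array weights and the mice included.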

Additional observations from a re-analysis of the deposited data

Results flagged for a closer look

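In 6 of the 32 sets of one gene in one group, a single mouse lay far from the others by Dixon's criterion, which chance meets in about 1 of 20 sets. For Retnlb these were marrow-only vehicle mouse 3 at 7.05 (the others at 9.67 to 10.11) and marrow-only ICA mouse 1 at 5.84 (10.66 to 11.26). Marrow-only vehicle mouse 3 was also apart in Fcgbp, at 12.34 (12.62 to 12.67). Marrow-only ICA mouse 4 was high in Muc2, at 13.63 (13.50 to 13.53), and mouse 3 of that group was high in Agr2, at 12.43 (12.22 to 12.28). T cell ICA mouse 5 was low in Zg16, at 12.36 (12.61 to 12.65). The causes were not tested.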

How the results depend on the processing

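Across 1152 alternative values of the 8 genes' differences, 1109 kept their direction and their side of the threshold, 41 changed sign and 2 passed the threshold. The alternatives were another normalization or centring, a filter, the mean of probe sets, other priors, array weights, only the 2 groups compared, the replicate block, each mouse left out and the 3 arrays omitted. Both that passed were Retnlb between T cell and marrow-only mice under ICA, so that 1 of 8 genes was called there when the 3 arrays were omitted (-2.39, adjusted p = 0.00378), and 0 to 1 over the single omissions (1 without marrow-only ICA mouse 1). The number called was 0 in all other settings and comparisons. No difference that changed sign exceeded 0.19 in size. Further quantile normalization gave Muc2 0.0293 and 0.0367 and Zg16 0.0303 between T cell and marrow-only mice (Muc2 under vehicle and ICA, Zg16 under vehicle), Zg16 0.0230 between ICA and vehicle in T cell mice, and interactions of 0.0074 for Muc2 and 0.0187 for Tff3. The Muc2 interaction was 0.0188 with arrays centred on their medians and 0.0205 with the mean of probe sets, and that of Agr2 was -0.0030 with centring on epithelial markers and -0.0115 with the 3 arrays omitted. The causes were not tested.

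Leaving out single mice gave ranges across 0 for 10 differences. Between T cell and marrow-only mice these were -0.0194 to 0.01 for Muc2, -0.0728 to 0.0161 for Zg16 and -1.0179 to 0.0046 for Retnlb under vehicle and -0.0197 to 0.0135 for Muc2 under ICA. Between ICA and vehicle in T cell mice they were -0.0712 to 0.1833 for Clca1, -0.0646 to 0.0311 for Zg16 and -0.6789 to 0.1851 for Retnlb. For the interaction they were -0.0186 to 0.0191 for Muc2, -0.1135 to 0.0445 for Tff3 and -0.0119 to 0.0424 for Agr2. With the replicate number as a replicate block, 0 of the 8 genes were called in any comparison, and the Zg16 difference between ICA and vehicle in T cell mice was 0.0039; the numbers did not pair the mice. Groups of 4 and 5 mice limit these results, most of all for Retnlb, whose interval reached past a 2-fold difference in each comparison.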
